A study of Rattus norvegicus with 10 samples.

Results

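The members described here were the 8 genes Egfr, Erbb3, Met, Hgf, Tgfa, Areg, Hbegf and Btc, which code for receptors and ligands of the epidermal growth factor (EGF) and hepatocyte growth factor (HGF) families. They were chosen by gene symbol, through the accession printed beside each array probe, and 9 of the 41012 probes on the array belonged to them. In all, 13837 genes were named by this route. Messenger RNA was measured in the livers of male Sprague Dawley rats with one-colour Agilent oligonucleotide arrays, 1 array per rat and 10 arrays in total. The 3 control rats received the solvent propylene glycol. The 4 SM rats received 3.5 mg/kg sulfur mustard under the skin, a bifunctional alkylating agent, at 0.7 of the LD50. The 3 SM + MSTF rats received the same SM dose and, 1 h later by stomach tube, 120 mg/kg MSTF. MSTF combines the salvianolic acids of the plant Salvia miltiorrhiza with flavonoids extracted from another plant, Anemarrhena asphodeloides. All livers were taken 24 h after SM, so each group was seen at this time only. The p-values set the differences between groups against the spread between these rats within groups.

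Ligands of the EGF family are made as membrane proteins, are cut free by metalloproteases and bind EGFR, which pairs with itself or with its relatives ErbB2 and ErbB3. HGF is made in the liver mainly by stellate and endothelial cells, is activated by proteolytic cleavage and binds Met on hepatocytes. Both routes drive hepatocytes into the cell cycle after loss or injury of liver tissue, and they are known for their part in liver regeneration.

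Values are given as log2 signal, after quantile normalization of the arrays, and a probe counted as well above background where the scanner software marked it so. Signals of different probes are not on a common scale, so no gene is set against another. The 10 hepatocyte markers examined were all well above background on every array, and 0 of the 10 was called in any comparison. At an unadjusted p under 0.05 in limma, 3 of the 10 differed between SM + MSTF and control, where 9.56% of all probes did. These were Apoa1 (-0.44), Ttr (-0.49) and Apob (0.32), and the dimmer Apob probes gave 0.0094 to 0.26. Ttr also passed that level between SM + MSTF and SM (-0.45). On each array 51.9 to 61.4% of probes were well above background. The control arrays and SM + MSTF replicate 3 shared 1 slide. The 4 SM arrays filled another slide, and SM + MSTF replicates 1 and 2 lay on a further one. No array of another group lay on the slide of the SM arrays. SM versus control and SM + MSTF versus SM are therefore also comparisons between slides, and neither can separate treatment from slide. In a whole liver, fewer cells of a type and less RNA per cell cannot be told apart.

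Of the 9 member probes, 6 probes of 5 genes (2 for Egfr, and 1 each for Erbb3, Met, Hgf and Tgfa) were well above background on all 10 arrays, and 0 of them was called changed in any of the 3 comparisons. A probe was called at an adjusted p under 0.05 in limma and a fold change of at least 1.5. In SM versus control, 2.40% of the 22990 probes tested were called (551 probes). In SM + MSTF versus SM the share was 1.28% (294 probes), with 0.961% lower and 0.318% higher. In SM + MSTF versus control it was 0%, with 2198 probes at an unadjusted p under 0.05 in limma. At that unadjusted level 0 of the 6 member probes passed in SM versus control, where 16.4% of all probes did, 0 passed in SM + MSTF versus control (9.56% of all probes), and 1 passed in SM + MSTF versus SM (15.9% of all probes). The F-test of limma over the 3 groups called 0 of 6, against 2.07% of all probes, with adjusted p between 0.309 and 0.879 for the members and 0 of 6 at an unadjusted p under 0.05, where 17.1% of all probes passed.

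**Figure D1:**
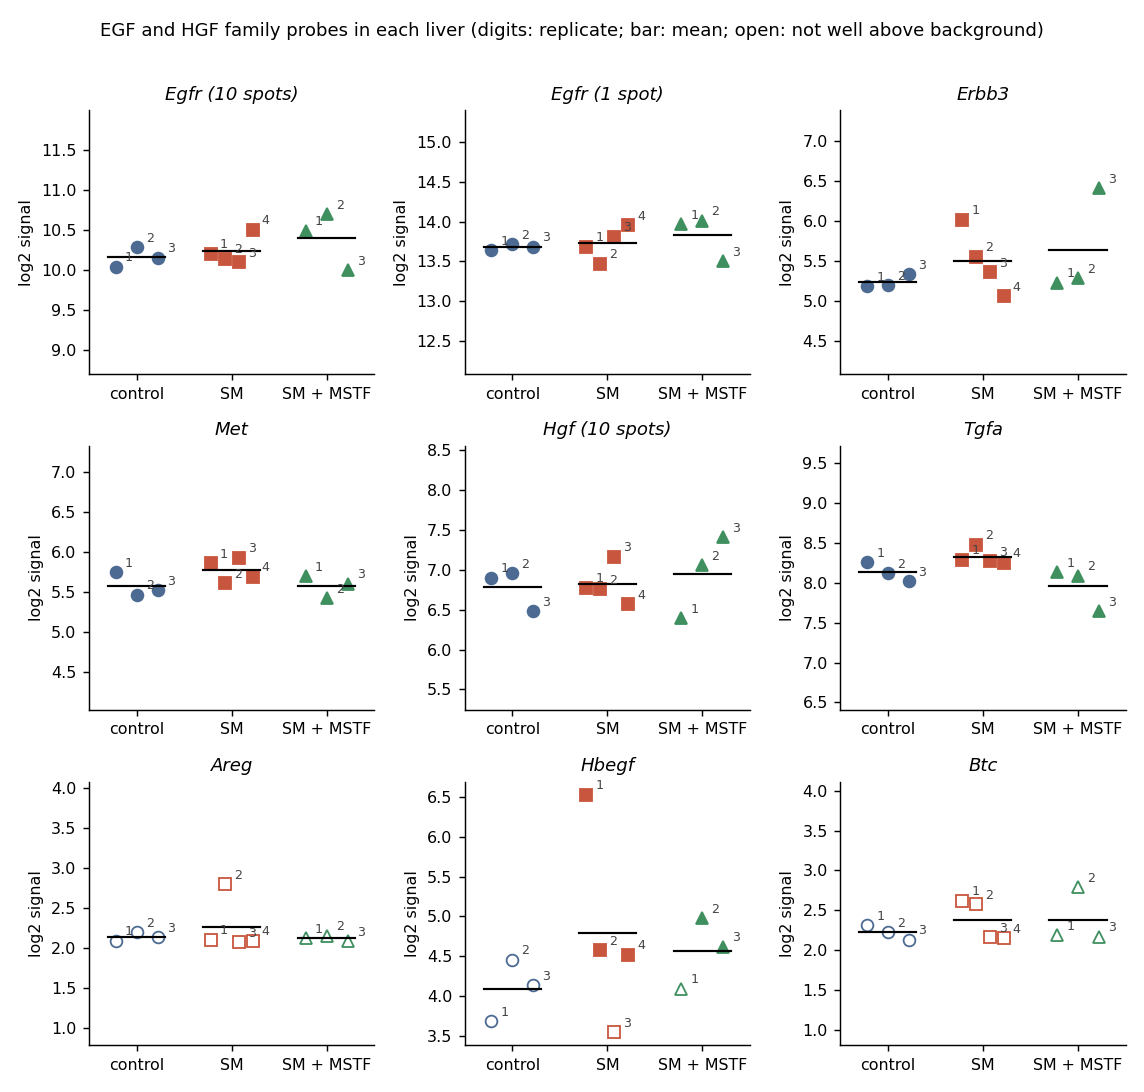
Log2 signal of each of the 9 member probes (vertical axes, each spanning 3.3 log2 units) in the control, SM and SM + MSTF livers (horizontal axis). Points are single rats with the replicate number beside them, bars are group means, and open points were not well above background. The groups overlap in every panel except for Tgfa, where the 3 SM + MSTF rats lie below the 4 SM rats.

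EGFR, the receptor shared by the EGF-like ligands among the members, was measured by 2 probes. The first was printed on 10 spots per array and read 10.04, 10.28 and 10.15 in the control rats. It read 10.20, 10.14, 10.10 and 10.50 in the SM rats and 10.49, 10.70 and 10.00 in the SM + MSTF rats. SM replicate 4 and SM + MSTF replicates 1 and 2 were the highest arrays, SM + MSTF replicate 3 was the lowest of all 10, and the 3 groups overlapped. The group means were 10.16 ± 0.12 for the controls (SD, n = 3), 10.24 ± 0.18 after SM alone (SD, n = 4) and 10.39 ± 0.36 after SM + MSTF (SD, n = 3). SM minus control was 0.08 on the log2 scale (SE 0.17), a ratio of 1.06 with a 95% interval from 0.810 to 1.37 and an adjusted p of 0.868 in limma. The second Egfr probe, printed on 1 spot, read 13.64 to 13.72 in control, 13.47 to 13.96 in SM and 13.50 to 14.01 in SM + MSTF, with the same 3 arrays on top. Its SM minus control difference was 0.05 (SE 0.15, adjusted p = 0.906 in limma). In SM + MSTF the probes differed from control by 0.24 (SE 0.18) and 0.14 (SE 0.16), with adjusted p of 0.705 and 0.798 in limma.

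The promoter windows of Egfr and Areg are shown because they belong to a receptor that was well above background on every array and to a ligand that was so on none of them. Each window runs from 250 bases before to 50 bases after the RefSeq start on the build GRCr8, and 7 of the 8 members had one. The Egfr window lies at chr14:95378376-95378675 on the plus strand and the Areg window at chr14:17265592-17265891 on the minus strand. Both are written 5′ to 3′ along the gene, and capitals mark matches on either strand to TATAAA, TGACGTCA or GGGCGG.
Egfr: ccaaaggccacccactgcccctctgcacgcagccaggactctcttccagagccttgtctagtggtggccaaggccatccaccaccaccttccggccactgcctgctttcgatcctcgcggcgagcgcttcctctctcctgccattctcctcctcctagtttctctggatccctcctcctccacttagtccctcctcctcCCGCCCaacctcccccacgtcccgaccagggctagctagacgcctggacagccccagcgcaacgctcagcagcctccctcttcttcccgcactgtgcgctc
Areg: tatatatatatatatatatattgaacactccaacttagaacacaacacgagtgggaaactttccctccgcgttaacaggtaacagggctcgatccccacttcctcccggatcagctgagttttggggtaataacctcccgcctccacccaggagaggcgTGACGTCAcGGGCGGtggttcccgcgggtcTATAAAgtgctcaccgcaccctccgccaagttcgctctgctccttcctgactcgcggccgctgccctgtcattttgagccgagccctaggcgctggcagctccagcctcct
The Areg window held 1 match each to TATAAA (the TATA box), TGACGTCA (the palindromic cyclic AMP response element) and GGGCGG (the GC box), none overlapping another. These letters occur in 14.3%, 1.91% and 34.9% of the 27457 rat promoter windows of the same length. The Egfr window held 1 GC box, read on the opposite strand as CCGCCC, and 0 matches to the other motifs. The AP-1 motif TGANTCA was in 0 of the 7 member windows and in 7.33% of all windows. The share of G and C was 64.3% for Egfr, 56% for Areg and 45.7 to 76.7% over the 7 members, against a median of 52.3% over all windows. A match describes the letters of the window only.

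ErbB3, a receptor with little kinase activity of its own that signals through its partner ErbB2, had the widest range of the 6 tested probes, 1.35 log2 units over the 10 arrays. The control rats read 5.18, 5.20 and 5.33. The SM rats read 6.02, 5.55, 5.36 and 5.06, and the SM + MSTF rats read 5.23, 5.29 and 6.41. SM replicate 1 and SM + MSTF replicate 3 stood above the others, SM replicate 4 was the lowest of all 10, and all groups overlapped. The group means were 5.24 ± 0.08 for the controls (SD, n = 3), 5.50 ± 0.40 after SM alone (SD, n = 4) and 5.64 ± 0.67 after SM + MSTF (SD, n = 3). The SM rats differed from control by 0.26 (SE 0.30, adjusted p = 0.722 in limma), and the interval of the ratio ran from 0.752 to 1.90. SM + MSTF minus control was 0.40 (SE 0.32, adjusted p = 0.714 in limma). Without SM + MSTF replicate 3 that difference was 0.02.

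Met, the receptor of HGF, read 5.74, 5.46 and 5.52 in the control rats, 5.86, 5.60, 5.93 and 5.68 in the SM rats, and 5.69, 5.42 and 5.60 in the SM + MSTF rats. SM replicates 1 and 3 were the highest arrays, and the other SM rats lay within the range of the controls. SM minus control was 0.19 (SE 0.12), a ratio of 1.14 with a 95% interval from 0.950 to 1.38 and an adjusted p of 0.468 in limma. SM + MSTF minus control was -0.0043 (SE 0.13), the smallest difference of the 6 probes in that comparison, with an interval of the ratio from 0.818 to 1.22 (adjusted p = 0.995 in limma). SM + MSTF minus SM was -0.20 (SE 0.12, adjusted p = 0.429 in limma).

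Hgf, the ligand of Met, was printed on 10 spots per array, of which 1 spot of control replicate 1 was flagged and left out. It read 6.90, 6.95 and 6.48 in the control rats, 6.78, 6.75, 7.16 and 6.57 in the SM rats, and 6.39, 7.05 and 7.40 in the SM + MSTF rats. The lowest and the highest of the 10 arrays were both SM + MSTF rats, and the groups overlapped. The group means were 6.78 ± 0.26 for the controls (SD, n = 3), 6.81 ± 0.25 after SM alone (SD, n = 4) and 6.95 ± 0.51 after SM + MSTF (SD, n = 3). The difference of SM from control was 0.04 (SE 0.24, adjusted p = 0.960 in limma), with an interval of the ratio from 0.709 to 1.48. SM + MSTF minus control was 0.17 (SE 0.25, adjusted p = 0.855 in limma).

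The repeated spots of Egfr and Hgf show the error within an array beside the spread between rats, which also holds the error of labelling and hybridisation. For Egfr the 10 spots of an array had an SD of 0.040 to 0.090, with a median of 0.063, while rats of the same group had an SD of 0.24, which was 3.75 times the median spot SD. For Hgf the spots had an SD of 0.071 to 0.13, with a median of 0.11, and rats of the same group an SD of 0.35, a ratio of 3.20. The spread between rats also holds slide in SM + MSTF, where the mean of the 2 rats on their own slide minus the rat on the control slide was 0.60 for Egfr and -0.68 for Hgf.

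**Figure D2:**
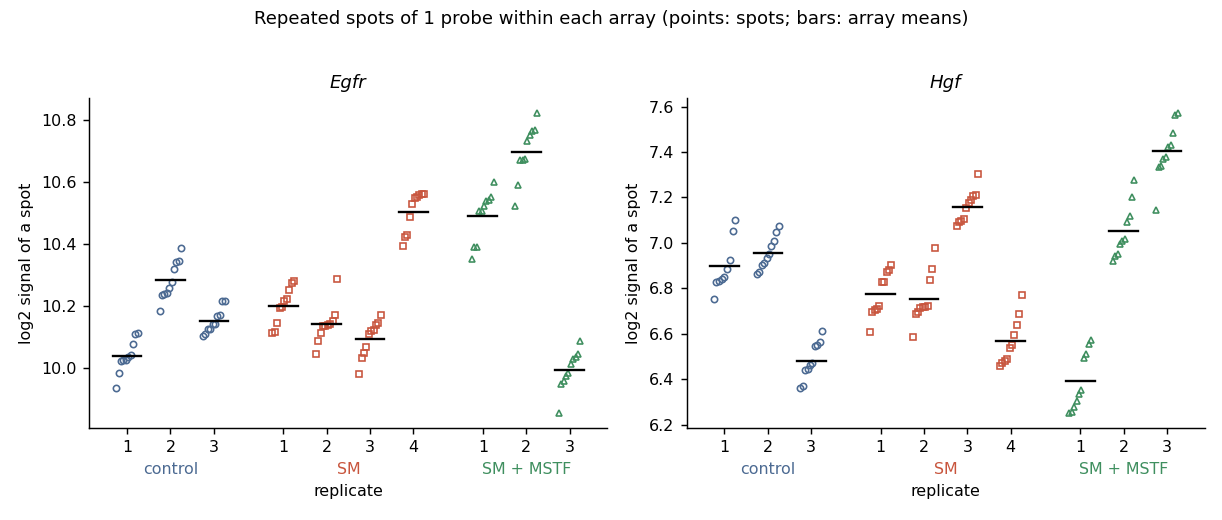
Log2 signal of each spot of the Egfr and Hgf probes that were printed 10 times (vertical axes), by array (horizontal axis, replicate number and group). Points are spots and bars are array means, and the means of arrays within 1 group lie farther apart than the spots within most arrays, with an SD between rats of 0.24 for Egfr and 0.35 for Hgf.

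Tgfa, which codes for transforming growth factor alpha, an EGFR ligand that hepatocytes make themselves, was the 1 member that passed an unadjusted p under 0.05, and it did so in SM + MSTF versus SM. The control rats read 8.25, 8.12 and 8.02. The SM rats read 8.29, 8.47, 8.27 and 8.25, and the SM + MSTF rats read 8.13, 8.09 and 7.64. All 3 SM + MSTF rats lay below all 4 SM rats, and 14.7% of all probes had arrays that did not overlap in this comparison. The group means were 8.13 ± 0.12 for the controls (SD, n = 3), 8.32 ± 0.10 after SM alone (SD, n = 4) and 7.95 ± 0.27 after SM + MSTF (SD, n = 3). SM + MSTF minus SM was -0.37 (SE 0.13), a ratio of 0.775 with a 95% interval from 0.631 to 0.952. Its unadjusted p in limma was 0.0203 and its adjusted p was 0.231. SM minus control was 0.19 (SE 0.13, adjusted p = 0.532 in limma), and SM + MSTF minus control was -0.18 (SE 0.14, adjusted p = 0.715 in limma). In both comparisons with control the arrays overlapped for all 6 probes, while the share of all probes that did not overlap was 18.0% for SM and 15.5% for SM + MSTF.

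The member ligands Hbegf, Areg and Btc were at or near the background of the arrays. Hbegf, which codes for heparin-binding EGF-like growth factor, read 3.69, 4.46 and 4.14 in control, and no control array passed for well above background. It read 6.53, 4.58, 3.55 and 4.52 in SM, well above background in all but SM replicate 3. In SM + MSTF it read 4.10, 4.98 and 4.62, well above background in replicates 2 and 3. SM replicate 1 stood far above the other 9 arrays, and SM replicate 3 was the lowest of all 10. The SM mean was 1.32 times, and the SM + MSTF mean 1.13 times, the level of the lowest signals counted as well above background on the control arrays. In SM 3 of 4 rats and in SM + MSTF 2 of 3 were well above background, and the means hold the other rats too. That level is the lowest that passed and not the highest that failed, so these ratios are not lower limits. Without SM replicate 1 the SM mean was 4.22, below the control level of 4.39. Without SM + MSTF replicate 2 that group's mean was 4.36, so each ratio above 1 rested on 1 rat. Hbegf was not tested, because it was not well above background on every array of any group.

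Areg (amphiregulin) and Btc (betacellulin) were not well above background on any of the 10 arrays. Areg read 2.09 to 2.20 in control, 2.07 to 2.80 in SM and 2.09 to 2.16 in SM + MSTF. Btc read 2.14 to 2.32, 2.15 to 2.62 and 2.17 to 2.79. In the RefSeq annotation of GRCr8 the genes Btc, Areg, Ereg and Epgn follow one another on chromosome 14. Ereg (epiregulin), the further member of this row with a probe, was also below the filter on dim probes.

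**Figure D3:**
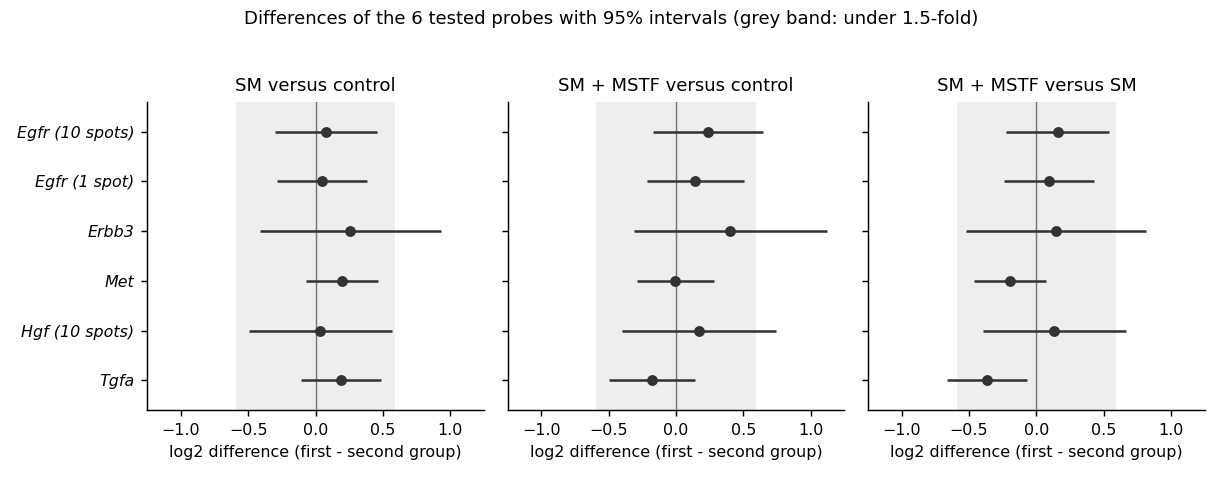
Log2 difference between group means (horizontal axes) for the 6 tested member probes (vertical axis) in the 3 comparisons. Points are limma estimates, lines are 95% intervals and the grey band marks changes of less than 1.5-fold. The Tgfa interval in SM + MSTF versus SM, from -0.66 to -0.07, is the 1 interval that leaves out 0.

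The intervals give how large a change the spread between rats could have hidden. They do not cover a difference between slides, because slide was not in the fit. In SM versus control the 95% interval of 5 of the 6 member probes lay wholly inside 1.5-fold either way, and 60.0% of all probes had such an interval. Erbb3 was the exception. Against control 3 of the 6 SM + MSTF intervals lay inside that band (59.6% of all probes), and against SM 3 of the 6 also did (58.4%). The fitted difference of SM from control was above 0 for 6 of 6 member probes, with a median of 0.13 against 0.03 over all probes, and it passed the test for 0 of them.

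SM + MSTF replicate 3 was the lowest or the highest of the 10 arrays for 4 of the 6 member probes (Egfr, Erbb3, Hgf and Tgfa), and for 32.3% of all tested probes. The other arrays held this place for 0 to 3 of the 6 member probes and for 14.5 to 23.7% of all probes. On the slide it shared with the controls, this rat differed from the control mean by 1.17 for Erbb3, 0.63 for Hgf, -0.49 for Tgfa, 0.03 for Met and -0.16 and -0.18 for the 2 Egfr probes. SM + MSTF replicates 1 and 2, on a slide of their own, differed from the control mean by 0.02, -0.06, -0.02 and -0.02 for Erbb3, Hgf, Tgfa and Met, and by 0.44 and 0.31 for Egfr. The signs of these differences were opposite for Egfr, Hgf and Met. The part of slide or of this rat in them was not tested.

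**Figure D4:**
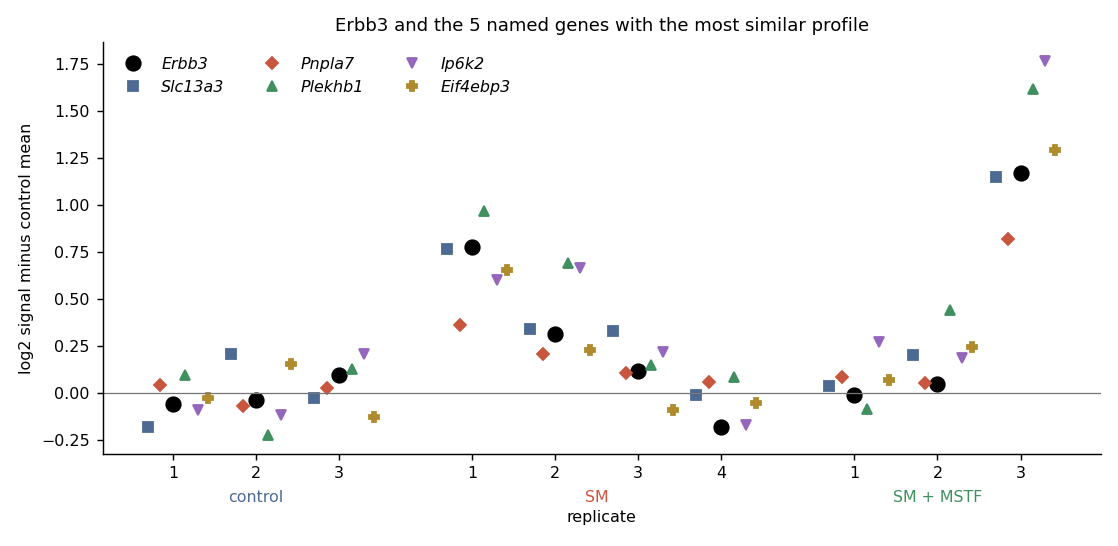
Log2 signal minus the control mean (vertical axis) of Erbb3 and of the 5 named genes with the highest correlation to it, in each rat (horizontal axis, replicate number and group). Points are single arrays, spread sideways by gene. SM replicate 1 and SM + MSTF replicate 3 stand highest for Erbb3, and SM + MSTF replicate 3 stands highest for all 6 genes.

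Erbb3 was the member probe of widest range, and it was compared with 11798 other named probes. The 5 most alike over the 10 arrays were Slc13a3, a dicarboxylate transporter (Pearson r = 0.95), Pnpla7, a lysophospholipase (r = 0.95), Plekhb1 (r = 0.95), Ip6k2, an inositol hexakisphosphate kinase (r = 0.94), and Eif4ebp3, a translation repressor (r = 0.93). Spearman's rho, in the same order, was 0.82, 0.75, 0.87, 0.90 and 0.53. These genes were picked for r out of all named probes, so the r is a description of likeness with no test. Without SM replicate 1 and SM + MSTF replicate 3 Pearson r was 0.65, 0.66, 0.72, 0.92 and 0.34 in the same order, so it fell least for Ip6k2 and most for Eif4ebp3.

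Erbb2 was lower in SM. This receptor binds no known ligand and is the preferred partner of ErbB3. It read 9.91, 9.45 and 9.53 in the control rats, 9.21, 8.95, 8.59 and 8.78 in the SM rats, and 9.09, 9.18 and 9.0 in the SM + MSTF rats. All SM rats and all SM + MSTF rats lay below all control rats, and SM and SM + MSTF overlapped. In SM versus control the log2 difference was -0.75 (SE 0.16), a ratio of 0.596, with an adjusted p of 0.0438 in limma. SM + MSTF minus control was -0.54 (SE 0.17, adjusted p = 0.424 in limma) and SM + MSTF minus SM was 0.21 (SE 0.16, adjusted p = 0.538 in limma). The Erbb2 call was close to the threshold. It was kept without SM + MSTF replicate 3 and lost when any of the other 9 arrays was left out, with the difference between -0.61 and -0.86 and adjusted p up to 0.134 in limma.

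Erbb2 was the 1 gene called among those around the receptors. Of 103 genes in 7 lists, 89 had a probe and 79 were tested, each by its brightest tested probe. In SM versus control 1 of 79 was called lower and 0 higher, where 1.42% of all probes were called lower and 0.974% higher. For SM + MSTF, 0 of 79 was called against control (0% of all probes) and 0 of 79 against SM (1.28%). At an unadjusted p under 0.05 in limma the counts were 9 of 79 in SM versus control (16.4% of all probes), 3 of 79 in SM + MSTF versus control (9.56%) and 5 of 79 in SM + MSTF versus SM (15.9%).

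**Figure D5:**
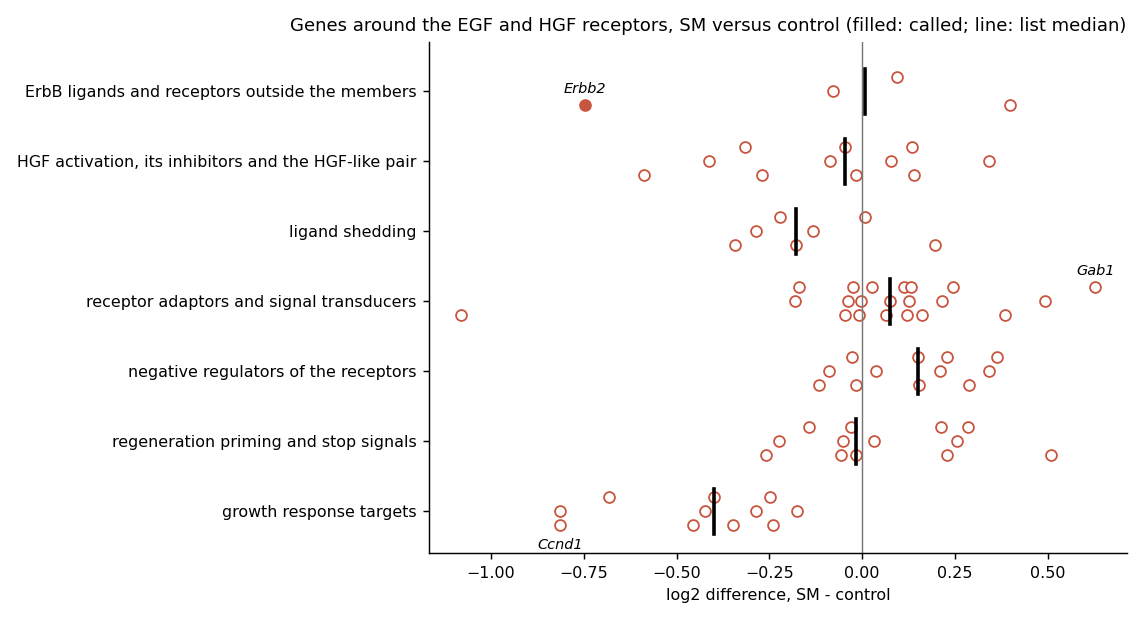
Log2 difference of SM from control (horizontal axis) for the 79 tested genes of the 7 lists (vertical axis). Each point is 1 gene, the filled point is the called gene Erbb2, and vertical lines are list medians. All 11 tested growth response targets lie left of 0, and Fosl1, below the filter on dim probes, is not shown.

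Among the other ErbB ligands and receptors, 4 of 9 listed genes were tested, with a median SM minus control difference of 0.01. Egf itself, Nrg1 and Nrg2 were tested and not called, and Ereg and Erbb4 were below the filter. Of the genes for HGF activation and its inhibitors 11 of 14 were tested and 0 was called, with a median of -0.05 in SM versus control. The smallest adjusted p there belonged to F12, coagulation factor XII, a serine protease, at -0.27 (SE 0.09, adjusted p = 0.175 in limma). A second F12 probe gave -0.12. Of the shedding genes 7 of 10 were tested and 0 was called. Mmp14, a membrane-bound metalloprotease, had the smallest adjusted p among the brightest probes, at -0.29 (SE 0.13, adjusted p = 0.322 in limma), and the list's median was -0.18. A second, dimmer probe of Adam9 gave 0.32 (adjusted p = 0.170 in limma), while the brighter Adam9 probe gave 0.0064.

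Among the receptor adaptors and signal transducers 21 of 23 genes were tested and 0 was called. Gab1, the docking protein that carries much of the signal of Met and EGFR, came nearest. It read 4.66, 4.40 and 4.78 in the control rats, where replicate 2 was not well above background. It read 5.51, 5.04, 5.30 and 5.11 in the SM rats and 4.93, 4.94 and 4.65 in the SM + MSTF rats. The SM rats all lay above the control rats and above the SM + MSTF rats. SM minus control was 0.63 (SE 0.15, adjusted p = 0.0551 in limma) and SM + MSTF minus SM was -0.40 (SE 0.15, adjusted p = 0.238 in limma). Over the alternatives the SM difference lay between 0.21, with normexp, and 0.71, without control replicate 3. Its adjusted p in limma was 0.0439 without SM + MSTF replicate 3 and between 0.0531 and 0.214 in the other limma fits. A second Gab1 probe gave 0.36 in SM versus control, with an adjusted p of 0.644 in limma.

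Of the negative regulators of the receptors 12 of 18 were tested and 0 was called. Socs4, a member of the SOCS family of signalling suppressors, came nearest with 0.36 in SM versus control (SE 0.11, adjusted p = 0.132 in limma). Of the priming and stop signals of regeneration 13 of 16 were tested and 0 was called, with the smallest adjusted p among the brightest probes for Acvr2b, an activin receptor, at 0.23 (SE 0.12, adjusted p = 0.377 in limma). A dimmer probe of Inhbb, the beta B subunit of activins, gave -0.99 (adjusted p = 0.327 in limma), and the brighter one -0.05. Il6 and Tnf, the cytokines of the priming phase, were below the filter on dim probes.

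The growth response targets, genes that rise when growth factor receptors signal, were below control in SM for 11 of 11 tested genes. Of these, 0 was called, and 1 of the 11 passed an unadjusted p under 0.05 in limma, where 16.4% of all probes did. What lay behind their shared direction was not tested. The list held 13 genes, of which 12 had a probe. Fosl1, below the filter on dim probes, went the other way, with means of 2.10 in control and 3.69 in SM. It was well above background on 0 control arrays and 2 of the 4 SM arrays. Their median difference was -0.40, against 0.03 over all probes, and in SM + MSTF versus control it was -0.37 with 3 of 11 genes above 0. The gene with the smallest adjusted p was Ccnd1, which codes for cyclin D1 of the G1 phase. It read 10.70, 11.27 and 11.33 in the control rats, 9.96, 10.24, 10.41 and 10.53 in the SM rats, and 10.14, 11.35 and 10.45 in the SM + MSTF rats. All SM rats lay below all control rats, and SM + MSTF overlapped both groups. For SM versus control the difference was -0.81 (SE 0.28, adjusted p = 0.181 in limma), and a second Ccnd1 probe gave -0.66.

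Markers of the cells that make or receive these signals were read beside the members. The stellate cell and fibroblast list had 9 of 10 genes well above background on every array, and its summed log2 signal ran from 16.02 to 16.43 in control, 15.85 to 16.38 in SM and 15.90 to 16.15 in SM + MSTF. The sinusoidal endothelial list had 5 of 6 genes above background on every array, with sums of 14.86 to 14.89, 14.79 to 14.93 and 14.56 to 14.97. The Kupffer cell and macrophage list had 0 of 10 genes above control in SM and 10 of 10 above SM in SM + MSTF, with 0 called in either comparison. In this list 0 of 10 genes passed an unadjusted p under 0.05 in limma in SM versus control (16.4% of all probes). In SM + MSTF versus SM 4 of 10 did (15.9% of all probes). Its sums ran from 16.75 to 17.12 in control, 16.15 to 17.06 in SM and 16.84 to 17.17 in SM + MSTF. The lists that moved most in SM were those of B cells and erythroid cells. Both tested B cell markers were lower than control at an unadjusted p under 0.05 in limma, where 16.4% of all probes passed. Of these markers 0 was called, against 2.40% of all probes. Their median of -1.44 lay between Cd79b (-2.18) and Cd74 (-0.70). Cd79b was well above background on 2 of the 4 SM arrays, with an SM mean of 4.18, so that median is not well set. Cd74 codes for the class II invariant chain, and with a control mean of 12.70 it made up most of the list's sums. These sums were 12.60 to 12.95 in control and 11.74 to 12.31 in SM. Whether the Cd74 signal came from B cells was not tested. The erythroid markers were above control in 5 of 5 genes, 2 of them at an unadjusted p under 0.05 in limma and 0 called, with a median of 0.90. The neutrophil list came next, with a median of 0.68 over 2 tested genes, of which 0 passed that level. The part of cell makeup in the values of the members was not tested.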

How the data were processed

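Per the labels, total liver RNA was hybridised to one-colour arrays. The authors read the scans with Agilent Feature Extraction 10.7, and the deposited scanner files hold an intensity per spot after background subtraction. They also deposited quantile-normalized log2 values, used as an alternative. Here the intensities, less control spots and those the software marked as not uniform or as outliers, were quantile normalized, put on the log2 scale and averaged per probe (R 4.3.3, limma 3.58.1). Precision is limited by signal over background and by the number of arrays. Genes were named through probe accessions and RefSeq genes of GRCr8 (17512 probes). The arrays were designed on an older build, so no probe coordinates are given. A probe was tested if, in 1 group or more, it was well above background on all arrays. The 3 labelled groups shared 1 limma fit (lmFit, eBayes) with Benjamini-Hochberg adjustment over 22990 probes. The fit was also run on simulated data with known changes, larger than any group difference of the members, and without slide effects. That run does not cover smaller changes or differences between slides. All member probes are named, and from each pathway list the called genes or, with none, the gene of smallest adjusted p in SM versus control. The members and lists were chosen with earlier results of these data known. Alternatives were 75th percentile scaling, the deposited values, normexp, other filters, flagged spots kept, fits of 2 groups, blocks for replicate number and slide, the methods' t-test, no fold minimum and each array left out.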

Additional observations from a re-analysis of the deposited data

Results flagged for a closer look

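In the SM group, the group with 4 rats, the highest or lowest rat was compared with the nearest of the others for 16 probes, the 9 member probes and 7 probes of the genes named from the pathway lists. Measured as a share of the group's range, the gap was above Dixon's 95% critical value for 2 of the 16, and chance alone gives about 1 in 20 groups. For Tgfa, SM replicate 2 read 8.47 with the nearest rat at 8.29, a gap of 0.842 of the range. For Areg, SM replicate 2 read 2.80 with the nearest rat at 2.10, a gap of 0.955 of the range, and the probe was not well above background on that array.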

How the results depend on the processing

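The count of member probes called, in each of the 3 comparisons and in the F-test, was 0 in all 85 recomputed counts. Of 366 recomputed differences of the members, 18 changed sign and 0 passed the threshold. Met in SM + MSTF versus control turned to 0.0010 with the deposited log2 values, 0.055 with normexp and 0.026 with slide as a fixed block, and ran from -0.065 to 0.081 over the arrays left out. With slide as a fixed block the 2 Egfr probes in SM + MSTF versus control turned to -0.16 and -0.18. With the replicate block, Egfr in SM versus control turned to -0.012 and -0.026, and Erbb3 in SM + MSTF versus SM to -0.00069. With 1 array left out, Egfr in SM versus control ran from -0.012 to 0.14 and from -0.026 to 0.14 for its 2 probes, and Hgf from -0.11 to 0.13. Hgf in SM + MSTF versus control ran from -0.057 to 0.45 and in SM + MSTF versus SM from -0.093 to 0.41, and Erbb3 in SM + MSTF versus SM from -0.24 to 0.35. Tgfa in SM + MSTF versus SM kept its sign in all 20 alternatives and an unadjusted p under 0.05 in 17, with limma or t-test adjusted p of 0.161 to 0.435, and was -0.21 without SM + MSTF replicate 3. The cause was not tested for any of these.

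The Erbb2 call in SM versus control was kept in 7 of 20 alternatives, counting the methods' t-test at its unadjusted p. After adjustment that t-test gave 0.154, above the threshold and the highest adjusted p of the 20 alternatives. The call was lost with no filter on dim probes (adjusted p = 0.0782 in limma) and with the 2 groups alone (0.0678). It was lost too with the replicate block (0.0868) and with slide as a random block (0.120). The difference in these limma fits was -0.75, -0.75, -0.71 and -0.76, in that order. In the replicate pairing check, rats with the same number had correlated deviations between -0.10 and 0.17 over 9 pairs, so the numbers were not taken to pair the rats. With the replicate block the calls over all probes numbered 52 for SM against control, 65 for SM + MSTF against SM and 0 for SM + MSTF against control.

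Over all probes, the 551 called in SM versus control became 214 with normexp, 338 with no filter, 337 with probes above background on all arrays, 86 with slide as a random block, and 1133 or 322 with the methods' t-test before or after adjustment. They became 65 without control replicate 2, 136 and 138 without the other controls, and 105, 330, 175 and 272 without SM replicates 1 to 4. The 294 in SM + MSTF versus SM became 57 with normexp, 140 with probes above background on all arrays, 150 with the 2 groups alone, 103 with slide as a random block, 864 or 13 with the methods' t-test, 100 and 120 without SM replicates 1 and 3, and 116 without SM + MSTF replicate 1. The 0 in SM + MSTF versus control became 285 with the methods' unadjusted t-test, 291 with slide as a fixed block, 249 without SM + MSTF replicate 3, 3 without SM + MSTF replicate 2 and 1 without control replicate 2. Spots at background give no order for Areg and Btc, and 3 or 4 rats a group limit every interval.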

Other observations

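Beside Gab1, 2 other adaptor genes were at an unadjusted p under 0.05 in SM versus control in limma, and both are named after their values were seen. Pik3cb, a catalytic subunit of phosphoinositide 3-kinase, was 0.49 above control in SM (SE 0.14, adjusted p = 0.106 in limma) and differed by -0.50 between SM + MSTF and SM (SE 0.14, adjusted p = 0.138 in limma). A second Pik3cb probe gave 0.12 and 0.06 for the same differences. Shc1, an adaptor that links receptors to Ras, was 0.39 above control in SM (SE 0.10, adjusted p = 0.0929 in limma), and its other probes gave 0.37 and 0.24.

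The 2 tested probes of Inhbb differed in sign. The brighter gave -0.31 in SM + MSTF versus SM (adjusted p = 0.425 in limma) and the dimmer 1.80 (adjusted p = 0.108 in limma). Of 7 tested T cell and natural killer cell markers, 1 was called lower in SM than in control, where 1.42% of all probes were. Against SM, 1 of the 7 was called higher with MSTF (0.318% of all probes). Nkg7 (-0.28) and Prf1 (-0.37) were lower in SM and not called, and Lck was 0.11 above control. The number of natural killer cells was not tested. The called gene was Klrd1, a receptor of these cells. It was -1.22 from control in SM (adjusted p = 0.0274 in limma) and 1.15 from SM in SM + MSTF (adjusted p = 0.0446 in limma). It was well above background on 2 of the 4 SM arrays, with an SM mean of 4.23, so the size of these differences is not well set.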
